A study of Mus musculus with 32 samples.

Results

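Metformin and rosiglitazone, both given to lower blood glucose in type 2 diabetes, were compared directly in the liver of aged mice: 4 arrays of metformin-fed mice (MET) against 4 of rosiglitazone-fed mice (ROS), of 32 arrays in the series. The members were all 12422 probe sets that are not array controls, out of 12488 in the table, and no measured value entered their choice. The mice were male B6C3F1 hybrids, housed singly from 5 months of age on a defined AIN-93M diet. From 20 months the MET and ROS mice received, for 8 weeks, the control diet with the drug pressed into the pellets, and the control mice (CON, 4 arrays) the same diet without a drug at 93 kcal per week. Every animal was fasted for 48 hours and killed at 22 months, so each value describes the fasted liver of an old male. The doses are not given in the sources used here. The labels describe separate mice, 4 per group, and give 1 array for each.

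Metformin is a biguanide that lowers glucose output by the liver and inhibits complex I of the mitochondrial respiratory chain. Rosiglitazone is a thiazolidinedione that activates PPAR gamma, a nuclear receptor found mainly in fat tissue, where it drives genes of lipid storage. The liver makes cholesterol from acetyl-CoA through the mevalonate pathway, turns part of it into bile acids, makes fatty acids after a meal and oxidises them in a fast. The sterol-sensing factor SREBP-2 controls the cholesterol genes, its relative SREBP-1c controls the fatty acid genes, and PPAR alpha controls the oxidation genes.

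The 8 arrays resembled each other closely. Pearson correlations over the tested probe sets lay between 0.955 and 0.972 within MET, 0.953 and 0.968 within ROS, and 0.943 and 0.966 between them. Hepatocyte markers summed to between 190000 and 201000 intensity units in MET and between 171000 and 199000 in ROS, so both groups carried the labelled tissue. Endothelial markers summed to 3210 to 3840 in MET and 2810 to 3110 in ROS, without overlap, though 0 of 10 tested passed; their part in the results was not tested. Column medians were 148.1 to 163.6 in MET, 163.1 to 170.1 in ROS and 162.1 to 165.2 in CON (exact permutation p = 0.0857 for MET against ROS, two-sided). ROS 4 carried skeletal muscle transcripts: its muscle actin Acta1 was 10461.4, against 14.9 to 191.9 in the other ROS arrays and 12.8 to 24.2 in MET. Results are therefore also given without the 5 arrays of the series that had Acta1 above 1000, ROS 4 among them.

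Of 7507 probe sets bright enough to test, 268 (3.57%) differed between the drugs, 127 (1.69%) higher in MET and 141 (1.88%) higher in ROS. The test was limma on log2(intensity + 27), with a Benjamini-Hochberg adjusted p under 0.05, and all differences below are MET minus ROS on that scale. A difference of 1 is a doubling, and changes of dim genes are understated. The balance of directions depended on the scaling of the arrays: with equal array medians 225 probe sets were higher in MET and 49 higher in ROS, 82.1% against 47.4% higher in MET. When these 5 arrays were left out 134 passed, and in a fit to the MET and ROS arrays alone 60 passed. That last fit ended the call of 39 of the 64 called genes named in the text, and quantile normalization that of Tpi1, Ndufb5, Tdo2, Gstm1, Ccng1 and Gaa (adjusted p = 0.0765 to 0.102). By gene, 198 of 5659 passed (3.5%), 96 higher in MET (1.7%) and 102 higher in ROS (1.8%). The count of each gene list below is to be set against these shares. The 4 MET and 4 ROS arrays did not overlap for 719 probe sets (9.58%). The median difference over all tested genes was -0.036. In bulk liver, fewer cells of a type and less RNA per cell cannot be told apart.

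**Figure D1:**
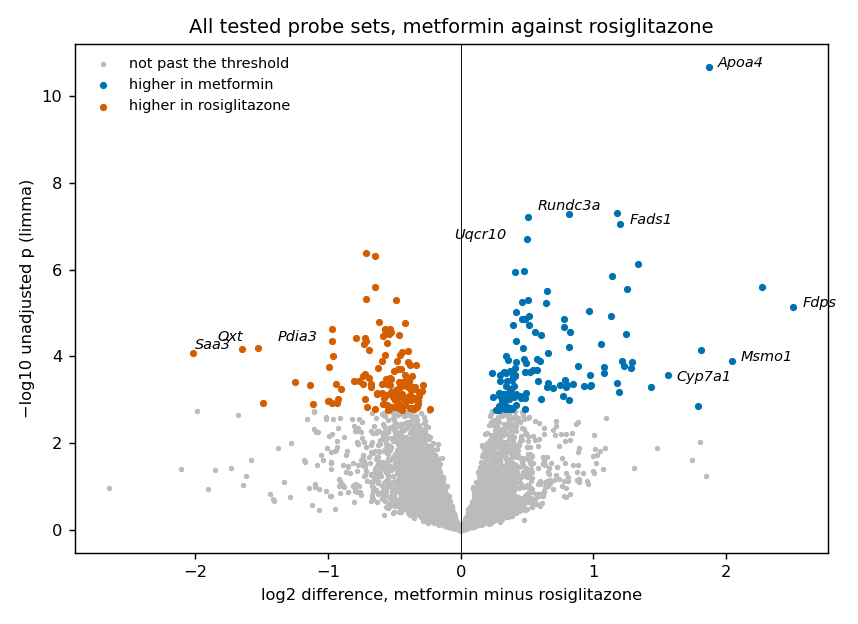
Each point is 1 of 7507 tested probe sets, by its log2 difference between metformin and rosiglitazone (x axis) and the −log10 of its unadjusted limma p (y axis). Blue points are the 127 past the threshold and higher in metformin, orange points the 141 higher in rosiglitazone; Apoa4 stands above all others, and Fdps lies farthest to the right of the blue points.

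Several enzymes of cholesterol synthesis were higher with metformin than with rosiglitazone. Of 15 listed genes tested, 8 passed the threshold, all higher in MET, 7 did not pass, and the list's median difference was 0.54 against -0.036 over all genes. The background share of genes higher in MET was 1.7%. Fdps, which makes farnesyl diphosphate, measured 8608.4, 2859.3, 1328.9 and 4319.5 intensity units in MET 1 to MET 4 and 531.5, 561, 467.3 and 838 in ROS 1 to ROS 4. Every MET array lay above every ROS array, though the MET arrays themselves spanned a wide range. The difference was 2.51 ± 0.46 (SE; adjusted p = 0.00249), a fold of 5.69, and the gene's other probe set gave 2.27 (adjusted p = 0.00135). Msmo1, the methylsterol oxidase that removes methyl groups from sterol intermediates, measured 1890, 1113.5, 498.5 and 1423.9 in MET and 301.3, 181.1, 193.5 and 357.9 in ROS. Its difference was 2.04 ± 0.46 (adjusted p = 0.0125), with no overlap. Nsdhl, the dehydrogenase that acts with Msmo1, measured 1557.3, 852.3, 738.2 and 987 in MET and 469.1, 339.1, 383.9 and 425 in ROS. Its difference was 1.25 ± 0.22 (adjusted p = 0.00143), and its other probe sets gave 1.23 and 0.97.

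The other 5 sterol genes past the threshold act at steps between the isoprenoid start of the pathway and its last step, but not at every step. Idi1, the isomerase of isopentenyl diphosphate, measured 583.5 to 2377.2 in MET and 207.8 to 637.2 in ROS, so that the groups overlapped (1.79 ± 0.51, adjusted p = 0.0437). Fdft1, squalene synthase, measured 2074.1 to 2259.7 against 1418.6 to 1498.1, a small difference with little spread (0.54 ± 0.13, adjusted p = 0.0163). Sqle, squalene epoxidase, measured 518.7 to 840.4 against 202.3 to 392.8 (1.19 ± 0.31, adjusted p = 0.0297). Lss, which closes the sterol ring, measured 263.8 to 515 against 158.1 to 175.4 (0.97 ± 0.18, adjusted p = 0.00296). Dhcr7, the reductase of the last step, measured 224.7 to 641.7 against 101 to 163.9 (1.22 ± 0.28, adjusted p = 0.0125). The 4 genes other than Idi1 had no overlap between groups. Not past the threshold were Tm7sf2 (0.52, adjusted p = 0.168), Mvk (0.29, adjusted p = 0.208), Cyp51 (0.30, adjusted p = 0.688), Hmgcs1 (0.18, adjusted p = 0.763), Ebp (0.01), Hsd17b7 (-0.085) and Sc5d (-0.11).

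MET 1 was the highest MET array for 7 of the 8 sterol genes past the threshold and MET 3 the lowest for 7 of 8. Without MET 1, 5 of the 8 passed: Dhcr7 (adjusted p = 0.0572), Sqle (adjusted p = 0.0753) and Idi1 (adjusted p = 0.142) did not. Without MET 3, 9 passed. Fdps, Msmo1, Nsdhl, Lss and Fdft1 passed with any 1 of the 8 arrays left out. Sqle also missed the threshold without MET 2, MET 4, ROS 1 or ROS 3 (adjusted p = 0.0559 to 0.0973), and Idi1 without MET 2, MET 4, ROS 1, ROS 2 or ROS 3 (adjusted p = 0.0559 to 0.116). With the 5 muscle-bearing arrays left out, 6 passed, Sqle (adjusted p = 0.0666) and Fdft1 (adjusted p = 0.0709) being the exceptions. In the fit to the MET and ROS arrays alone 6 passed, Dhcr7 (adjusted p = 0.0751) and Idi1 (adjusted p = 0.0792) being the exceptions.

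**Figure D2:**
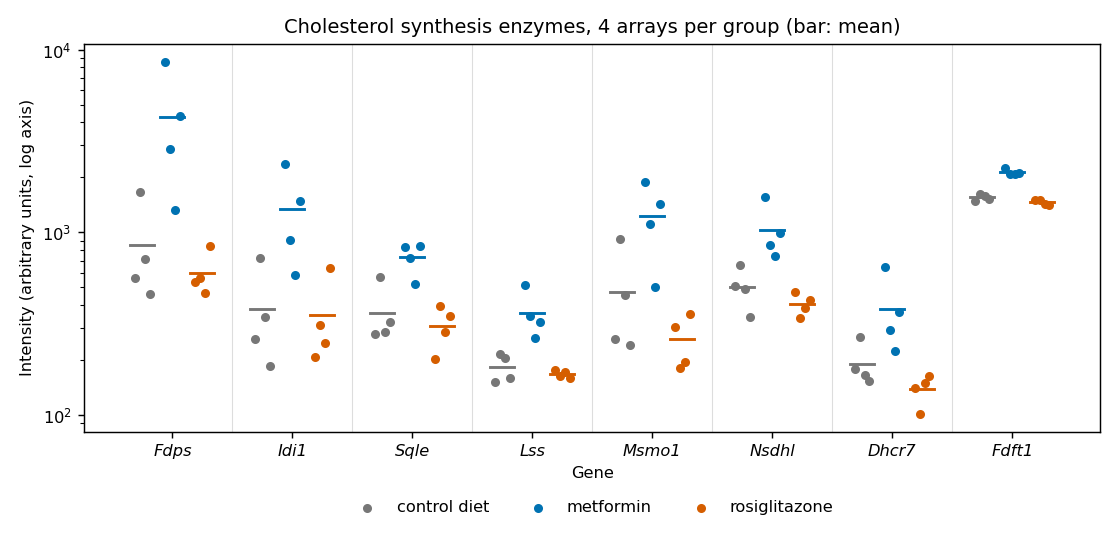
Intensity on a log axis of 8 cholesterol synthesis genes on each of 4 arrays of control (grey), metformin (blue) and rosiglitazone (orange) mice, with bars at the group means. The metformin arrays lie above the rosiglitazone arrays for every gene shown except Idi1, where 583.5 in metformin lies below 637.2 in rosiglitazone; Fdps spans 1328.9 to 8608.4 within metformin.

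The promoters of these genes are shown because sterol genes have a known promoter layout, in which SREBP acts beside the CCAAT-binding factor NF-Y. Its part in these differences was not tested. RefSeq's promoter table (GRCm38.p6) held a start for 5 of the 8 genes. In the 250 bases before each start, on both strands, 3 strings were searched: TCACNCCAC, a form of the sterol regulatory element, CCAAT, the NF-Y box, and the PPAR element (a direct repeat); a CCAAT match does not exclude overlap with the others. CCAAT, or ATTGG for the other strand, was found before 5 of 7 starts of these genes (71.4%) and 12 of 14 starts of all tested sterol genes (85.7%), against 33.8% of all 32851 starts. The sterol genes not past the threshold, Tm7sf2, Mvk, Cyp51, Hmgcs1, Sc5d, Hsd17b7 and Ebp, each had such a match too. TCACNCCAC was found before 0 of 7 starts of the 5 genes, 1 of 14 starts of all tested sterol genes (Hmgcs1) and 1.05% of all starts. The PPAR element was found before none of these sterol starts and 0.0335% of all starts. A match is a description of letters, not a bound site, and an absent string says only that these letters are not in this window. The 3 windows below are written 5′ to 3′ along the gene, with CCAAT or ATTGG in capitals and the last base next to the start.
Msmo1, chr8:64733579-64733828, - strand: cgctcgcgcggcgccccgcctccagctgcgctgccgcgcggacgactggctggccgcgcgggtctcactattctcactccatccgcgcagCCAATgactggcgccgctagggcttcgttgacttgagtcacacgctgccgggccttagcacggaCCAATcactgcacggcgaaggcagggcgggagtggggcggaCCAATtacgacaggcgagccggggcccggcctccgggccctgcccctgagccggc
Nsdhl, chrX:72918271-72918520, + strand: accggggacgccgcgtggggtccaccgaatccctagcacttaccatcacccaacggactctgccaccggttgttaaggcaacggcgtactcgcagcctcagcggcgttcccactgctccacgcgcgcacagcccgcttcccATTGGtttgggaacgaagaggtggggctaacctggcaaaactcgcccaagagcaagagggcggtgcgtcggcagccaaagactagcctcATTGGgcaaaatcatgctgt
Lss, chr10:76531355-76531604, + strand: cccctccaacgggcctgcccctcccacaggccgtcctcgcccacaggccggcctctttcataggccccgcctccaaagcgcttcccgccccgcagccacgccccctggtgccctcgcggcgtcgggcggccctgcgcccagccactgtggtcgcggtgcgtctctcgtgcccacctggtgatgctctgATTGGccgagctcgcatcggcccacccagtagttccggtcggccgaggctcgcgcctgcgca

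Some fatty acid synthesis genes were also higher with metformin. Of 14 listed genes tested, 5 passed the threshold, all higher in MET, against 1.7% of all genes, and 9 did not. All 14 differences were above 0, with a median of 0.46. Fads1, a desaturase of polyunsaturated fatty acids, measured 9759.7, 7055.4, 4500 and 8172.6 in MET 1 to MET 4 and 3222.9, 2461.3, 3250.4 and 3428.9 in ROS 1 to ROS 4. There was no overlap, and the difference was 1.20 ± 0.17 (adjusted p = 0.000135), a fold of 2.3. Thrsp, a lipogenic nuclear protein that responds to thyroid hormone, measured 5094.3, 2574.3, 619.6 and 2168.1 in MET and 705.7, 1048, 594.3 and 696.2 in ROS. MET 3 lay within the ROS range, and the difference was 1.44 ± 0.37 (adjusted p = 0.0245). Mid1ip1, which promotes the activity of acetyl-CoA carboxylase, measured 963.5 to 1655.4 against 558.6 to 713.3 (0.89 ± 0.21, adjusted p = 0.0147). Pklr, the pyruvate kinase of liver, measured 703.7 to 1137.4 against 582.5 to 676.1 (0.57 ± 0.14, adjusted p = 0.0163; its other probe set gave 1.34). Slc25a1, the mitochondrial citrate carrier, measured 2946.1 to 4442.9 against 2307.5 to 2417.5 (0.51 ± 0.10, adjusted p = 0.00403).

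The factor and the core enzymes of this pathway did not pass. Srebf1, which encodes SREBP-1, differed by 0.41 ± 0.13 (adjusted p = 0.0755), Fasn, fatty acid synthase, by 0.54 ± 0.22 (adjusted p = 0.175), Acly, ATP citrate lyase, by 0.27 ± 0.13 (adjusted p = 0.243) and Scd1, stearoyl-CoA desaturase, by 0.26 ± 0.15 (adjusted p = 0.399). Srebf1 passed with equal array medians (adjusted p = 0.0399), without MET 3 (adjusted p = 0.045) or without ROS 2 (adjusted p = 0.0423). MET 1 was the highest and MET 3 the lowest MET array for 5 of the 5 genes past the threshold. Without MET 1, 2 genes passed, Fads1 and Slc25a1, while Mid1ip1 (adjusted p = 0.0611), Pklr (adjusted p = 0.0651) and Thrsp (adjusted p = 0.112) did not. Thrsp also missed it without MET 2, MET 4, ROS 1, ROS 3 or ROS 4 (adjusted p = 0.0577 to 0.0719). Leaving out the 5 arrays with muscle transcripts, 4 passed, Thrsp being the exception (adjusted p = 0.0889). In the fit to the MET and ROS arrays alone 2 passed, while Pklr (adjusted p = 0.0957), Slc25a1 (adjusted p = 0.0971) and Thrsp (adjusted p = 0.215) did not.

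Bile acid synthesis differed at its first and branching enzymes. Of 12 listed genes tested, 2 passed, both higher in MET, against 1.7% of all genes. The other 10 did not pass, and the list median was 0.02. Cyp7a1, the rate-limiting enzyme of bile acid synthesis, measured 2069.4, 3178.7, 993.3 and 1530.2 in MET and 1585.8, 468.4, 361.1 and 428.3 in ROS. ROS 1 lay within the MET range and the other ROS arrays below it, and the difference was 1.56 ± 0.38 (adjusted p = 0.019). Cyp8b1, which sets the share of cholic acid in the pool, measured 5115.6, 6443.7, 6177.6 and 6598.7 in MET and 2640.9, 1422.2, 3604.6 and 3655.9 in ROS. The groups did not overlap, and the difference was 1.18 ± 0.30 (adjusted p = 0.023). Cyp7a1 missed the threshold without MET 2, ROS 2, ROS 3 or ROS 4 (adjusted p = 0.0549 to 0.0693) and without the 5 arrays with muscle transcripts (adjusted p = 0.09). Cyp8b1 missed it without MET 4, ROS 1 or ROS 2 (adjusted p = 0.0502 to 0.101). Neither passed in the fit to the MET and ROS arrays alone (Cyp7a1 adjusted p = 0.143, Cyp8b1 adjusted p = 0.0648). The bile acid receptor Nr1h4 (0.31, adjusted p = 0.474) and its target Nr0b2 (-0.15, adjusted p = 0.79) did not pass.

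Among lipoprotein and cholesterol transport genes, 17 were tested, 1 passed higher in MET and 1 higher in ROS (1.7% and 1.8% of all genes). Apoa4, the apolipoprotein A-IV that liver and gut secrete, measured 11301.8, 18519.5, 10484 and 16975.4 in MET and 3680.9, 2621.4, 4814.2 and 4398.9 in ROS. Its difference of 1.87 ± 0.18 (adjusted p = 1.58e-07), a fold of 3.65, had the smallest p of all tested genes, and the groups lay far apart. Abca1, which exports cholesterol from cells, measured 1270.4, 1086, 918.8 and 1098.1 in MET and 1775.9, 1912.6, 1623.8 and 1578.8 in ROS. The difference was -0.65 ± 0.11 (adjusted p = 0.00135), while its other, dimmer probe set gave 0.02 (adjusted p = 0.971), so the probe sets disagree. Both calls held with any 1 of the 8 arrays left out.

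A group of genes stood lower in ROS and near the control level in MET. Apoa4 measured 11455.9, 12797.6, 12370.9 and 12975.2 in the 4 CON arrays, which lies within the MET range and above every ROS array. Rundc3a, a RUN domain protein, measured 532.5, 880.1, 627.1 and 809.9 in MET, 309.9, 223.9, 258.3 and 413.7 in ROS and 716.1 to 928.4 in CON (MET minus ROS 1.18 ± 0.16, adjusted p = 0.000113). Upp2, a uridine phosphorylase of liver, measured 10859, 14700.5, 11960.7 and 11541.4 in MET, 6315.5, 5725.5, 4841.6 and 5306.6 in ROS and 8751.3 to 13940.7 in CON (1.14 ± 0.19, adjusted p = 0.000887). Wfdc2, a secreted protein with a protease inhibitor fold, measured 517.9 to 832.8 in MET, 186 to 431.5 in ROS and 541.4 to 797 in CON (1.06 ± 0.22, adjusted p = 0.00704). None of these genes' MET arrays overlapped the ROS arrays. Against CON, the ROS differences were -1.70 for Apoa4 (adjusted p = 1.28e-06), -1.40 for Rundc3a (adjusted p = 5.98e-06), -1.02 for Upp2 (adjusted p = 0.0122) and -1.14 for Wfdc2 (adjusted p = 0.0236). The differences of MET from the same CON arrays were 0.17, -0.22, 0.12 and -0.082, none past the threshold. All 4 MET against ROS calls held with any 1 array left out, and Wfdc2 missed the threshold without the 5 arrays with muscle transcripts (adjusted p = 0.064) and in the fit to the MET and ROS arrays alone (adjusted p = 0.0792).

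**Figure D3:**
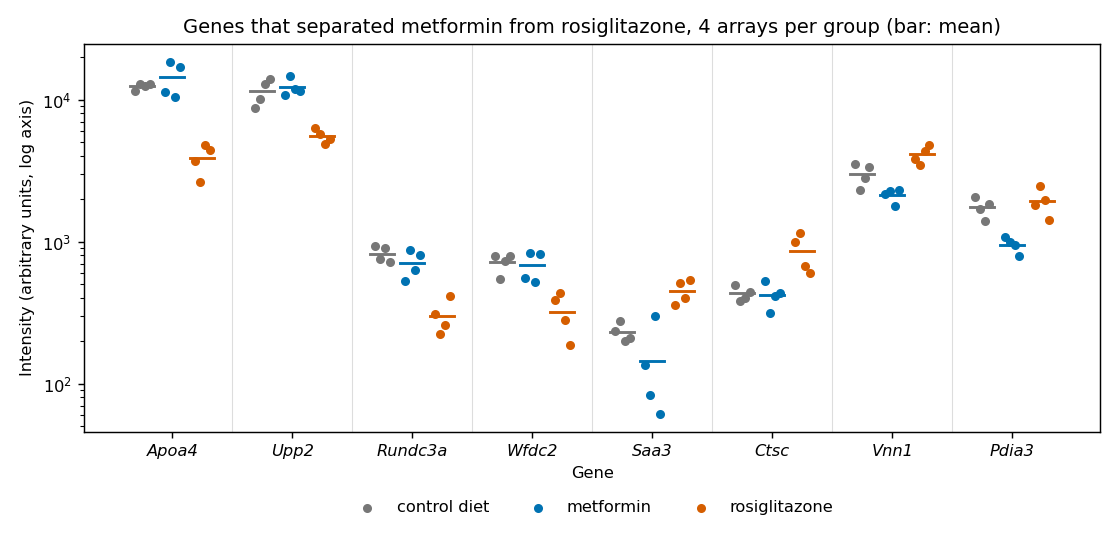
Intensity on a log axis of 8 genes on each of 4 arrays of control (grey), metformin (blue) and rosiglitazone (orange) mice, with bars at the group means. The rosiglitazone arrays lie below both other groups for Apoa4, Upp2, Rundc3a and Wfdc2 and above the metformin arrays for Saa3, Ctsc, Vnn1 and Pdia3.

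Other genes, chosen as highest in MET among called genes whose groups did not overlap, included Mcm2, a subunit of the replicative helicase, which measured 164.5 to 188.6 in MET and 39 to 122.8 in ROS (0.98 ± 0.25, adjusted p = 0.0241). It missed the threshold without MET 2, ROS 3 or ROS 4 (adjusted p = 0.0533 to 0.101). Nrep measured 806.3 to 1466.8 against 382.4 to 624.5 (1.08 ± 0.26, adjusted p = 0.0175), and missed it without MET 1 (adjusted p = 0.0651) or ROS 3 (adjusted p = 0.0589). Both missed it without the 5 arrays with muscle transcripts (adjusted p = 0.138 for Mcm2 and 0.0588 for Nrep), and Mcm2 also in the fit to the MET and ROS arrays alone (adjusted p = 0.106).

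Targets of PPAR gamma were mostly not called. Of 16 listed PPAR gamma and adipocyte lipid genes tested, 1 passed, higher in ROS, against 1.8% of all genes. The other 15 did not pass. Differences were above 0 for 2 of the 16, and the list's median difference was -0.26 against -0.036 over all genes. Cidea, a protein that enlarges lipid droplets, measured 13, 177.5, 19.2 and 20 in MET and 193.7, 96.5, 374.4 and 410.5 in ROS. MET 2 lay above ROS 2, and the other MET arrays lay far below every ROS array and below the added value of 27. The difference was -2.02 ± 0.44 (adjusted p = 0.00975); its size depends on the added value, from -1.28 with the 40th percentile added to -2.86 with 1 added. Cidea did not pass in the fit to the MET and ROS arrays alone (adjusted p = 0.129). Its mean intensity was above the filter of 94.2. With a filter on the mean of log2 values, or at the 60th percentile, it was not tested, so the call depends on the filter. In CON, Cidea measured 44.1 to 203.9. Cidec, a related droplet protein, lay below the intensity filter, at 4.7 to 7.7 in MET and 7.3 to 47.2 in ROS. With no filter it was lower in MET (-0.73 ± 0.17, adjusted p = 0.0258), though all 4 MET arrays lay below the added value of 27. The other droplet and uptake genes did not pass: Plin4, a perilipin, measured 62.9, 277.9, 45.7 and 50.8 in MET and 306.8, 116, 384.2 and 332.7 in ROS (-1.38 ± 0.52, adjusted p = 0.142), and passed without MET 2 (adjusted p = 0.0454). Lpl, lipoprotein lipase, differed by -1.58 ± 0.67 (adjusted p = 0.197), with 1032.4 in ROS 4, the array with muscle transcripts, and 183 to 331.6 in the other ROS arrays. Every MET array lay below every ROS array for Lpl, and with 1 array left out its difference lay between -1.86 and -1.08. Fabp4, a fatty acid binding protein of fat cells, differed by -0.63 ± 0.30 (adjusted p = 0.268), Cd36, a fatty acid transporter, by -0.11 ± 0.17 (adjusted p = 0.803) and Pparg itself by -0.11 ± 0.27 (adjusted p = 0.874). Adipocyte markers summed to 1440 to 2330 in MET and 1200 to 1980 in ROS, and 0 of 4 tested passed; their part in the Cidea result was not tested.

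Most genes of fatty acid oxidation did not pass. Of 31 listed PPAR alpha targets and oxidation genes tested, 2 passed, both higher in ROS, against 1.8% of all genes. The list's median was -0.12, against -0.036 over all genes. Vnn1, a pantetheinase and PPAR alpha target, measured 2164.5, 2278.3, 1787.7 and 2298.2 in MET and 3835.8, 3487.8, 4321.7 and 4783.3 in ROS, with no overlap (-0.93 ± 0.26, adjusted p = 0.0392). Cyp4a10, which hydroxylates fatty acids, measured 3900.9 to 6930.3 in MET and 6855.8 to 9230.4 in ROS (-0.63 ± 0.17, adjusted p = 0.0305). Both calls lay near the threshold. Vnn1 missed it with any 1 of the 8 arrays left out (adjusted p = 0.0539 to 0.105), while its difference stayed between -1.01 and -0.85. Cyp4a10 missed it without MET 1, MET 4, ROS 1, ROS 3 or ROS 4 (adjusted p = 0.0685 to 0.118), with differences between -0.76 and -0.48. With equal array medians neither passed (Vnn1 adjusted p = 0.0694, Cyp4a10 adjusted p = 0.0614), nor did either without the 5 arrays with muscle transcripts (adjusted p = 0.143 and 0.101). Cyp4a10 also missed it in the fit to the MET and ROS arrays alone (adjusted p = 0.108). Cpt1a, the gate of mitochondrial oxidation, differed by 0.35 ± 0.11 (adjusted p = 0.0755) with no overlap between groups, and passed with equal array medians (adjusted p = 0.0426). Acot1 (-0.54 ± 0.49, adjusted p = 0.612) and Ppara (-0.22 ± 0.34, adjusted p = 0.795) did not pass, MET 3 being low for Ppara. Pdk4, which curbs glucose oxidation, differed by -0.86 ± 0.41 (adjusted p = 0.267), with 1680.3 in ROS 4 and 259.4 to 391 in the other ROS arrays. Plin2, a lipid droplet coat protein, differed by -0.33 ± 0.19 (adjusted p = 0.371).

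Some genes of carbohydrate metabolism differed. Of 11 glycolysis and glucose uptake genes tested, 4 passed, all higher in MET (1.7% of all genes), among them Pklr described above. Differences were above 0 for 6 of the 11, with a median of 0.08. Pkm (-0.73, adjusted p = 0.215) and Ldha (-0.22, adjusted p = 0.192) were among those that lay the other way without passing. Gbe1, the glycogen branching enzyme, measured 464.9 to 651.8 in MET and 309.4 to 399.2 in ROS (0.60 ± 0.14, adjusted p = 0.0125). Pgk1, phosphoglycerate kinase, measured 4322.9 to 5197 against 2837.1 to 3753 (0.50 ± 0.11, adjusted p = 0.0131). Tpi1, triosephosphate isomerase, measured 7438.5 to 8343.4 against 6606.2 to 6839.2 (0.24 ± 0.057, adjusted p = 0.0175). Pgk1 missed the threshold without ROS 1 (adjusted p = 0.0582) and Tpi1 without MET 2 (adjusted p = 0.0533) or MET 4 (adjusted p = 0.0513). In the fit to the MET and ROS arrays alone none of the 4 passed (Gbe1 adjusted p = 0.0743, Pgk1 0.0626, Tpi1 0.167, Pklr 0.0957), and with quantile normalization Tpi1 did not (adjusted p = 0.0806). Of 7 gluconeogenesis genes tested 1 passed, Pcx, lower in MET (1.8% of all genes). Pcx, pyruvate carboxylase, measured 1458.3 to 1690.3 in MET and 1916.4 to 2159.3 in ROS (-0.36 ± 0.096, adjusted p = 0.0332). Pcx missed the threshold without MET 1, MET 2, MET 3, ROS 1, ROS 2, ROS 3 or ROS 4 (adjusted p = 0.052 to 0.0986), with equal array medians (adjusted p = 0.19), without the 5 arrays with muscle transcripts (adjusted p = 0.115) and in the fit to the MET and ROS arrays alone (adjusted p = 0.1). G6pc, glucose-6-phosphatase, measured 5512.8, 4901.6, 5175.9 and 3184.8 in MET and 3409.7, 2442.9, 4295.7 and 2975.4 in ROS (0.51 ± 0.26, adjusted p = 0.298). Pck1, phosphoenolpyruvate carboxykinase, differed by -0.31 ± 0.14 (adjusted p = 0.257), and passed without MET 3 (adjusted p = 0.0253). Igf1 (0.13 ± 0.12, adjusted p = 0.629) and Igfbp1 (0.63 ± 0.35, adjusted p = 0.349) did not pass, and neither did any of 18 insulin and IGF signalling genes tested, the insulin receptor lying below the filter. Of the AMPK list, only Prkag1, Prkab1, Stk11, Strada and Cab39 were tested, and none passed, so this covers regulatory subunits and upstream kinase components alone.

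Respiratory chain subunits leaned towards MET by small amounts. Of 28 complex I genes tested, 1 passed, a count near the share over all genes (1.7% higher in MET, 3.5% either way). Differences were above 0 for 24 of 28, with a median of 0.16 against -0.036 over all genes. Ndufb5 measured 9558, 10724.5, 9130.8 and 9669 in MET and 6807.3, 7191.8, 8274.6 and 8291.9 in ROS (0.36 ± 0.095, adjusted p = 0.032). Of 32 genes of complexes II to V, 5 passed, all higher in MET, against 1.7% of all genes, with a median of 0.11. Uqcr10, a subunit of complex III, measured 5279.4, 5993, 4855.6 and 5403 in MET and 3461.8, 3845.5, 3825.9 and 4051.7 in ROS, with no overlap (0.50 ± 0.073, adjusted p = 0.000248). Cox7a2 (0.46 ± 0.089, adjusted p = 0.00337), a subunit of cytochrome oxidase, Atp5l (0.36 ± 0.08, adjusted p = 0.0125), of the ATP synthase, Sdhd (0.49 ± 0.13, adjusted p = 0.0305), of succinate dehydrogenase, and Uqcrb (0.38 ± 0.10, adjusted p = 0.0313), of complex III, made up the rest. Another probe set of Atp5l gave -0.38 (adjusted p = 0.28). Uqcr10 and Cox7a2 passed with any 1 array left out. Ndufb5 missed the threshold without MET 1, MET 2, MET 4, ROS 1 or ROS 2 (adjusted p = 0.0569 to 0.11) and without the 5 arrays with muscle transcripts (adjusted p = 0.0536), Atp5l without ROS 1 (adjusted p = 0.0566), Sdhd without MET 1, MET 4, ROS 1, ROS 2 or ROS 3 (adjusted p = 0.0668 to 0.101) and Uqcrb without MET 1, MET 2, MET 4, ROS 1 or ROS 2 (adjusted p = 0.0543 to 0.113). The counts depended on the scaling and the fit. With equal array medians 7 complex I genes and 7 of complexes II to V passed, all higher in MET. With quantile normalization 0 and 5 passed, and in the fit to the MET and ROS arrays alone 0 and 1, Uqcr10. In the tricarboxylic acid cycle 1 of 20 genes passed higher in MET, Sdhd, and 1 higher in ROS, Dld (1.7% and 1.8% of all genes). Dld, dihydrolipoamide dehydrogenase, differed by -0.32 ± 0.089 (adjusted p = 0.0411). It missed the threshold without MET 1, MET 2, MET 3, ROS 1, ROS 2 or ROS 4 (adjusted p = 0.0518 to 0.125). Dld also missed it with equal array medians (adjusted p = 0.206), without the 5 arrays with muscle transcripts (adjusted p = 0.113) and in the fit to the MET and ROS arrays alone (adjusted p = 0.169).

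A few acute phase proteins, which the liver secretes in inflammation, were lower in MET. Of 27 genes tested 3 passed, all lower in MET, against 1.8% of all genes, and 24 did not. The median difference was -0.42. Saa3, a serum amyloid A protein, measured 135.6, 83.5, 301.1 and 61.2 in MET and 360, 511.1, 398.5 and 540.5 in ROS, with no overlap (-1.65 ± 0.35, adjusted p = 0.00833). Fgb, the fibrinogen beta chain, measured 6548.2, 4679.8, 5415.8 and 4971.4 in MET and 8975.7, 11208.3, 8135.9 and 7473.1 in ROS (-0.72 ± 0.15, adjusted p = 0.00578). Fga, the alpha chain, measured 3470.9 to 4068.9 against 4754.2 to 5761.3 (-0.47 ± 0.12, adjusted p = 0.0227). Fgg, the gamma chain, measured 7361.2 to 8174.5 against 8477 to 14399.6 without overlap and missed the threshold (-0.48 ± 0.14, adjusted p = 0.0549). It passed without ROS 3 (adjusted p = 0.0327), with quantile normalization (adjusted p = 0.0438) and with the filter at the 60th percentile (adjusted p = 0.0418). Mt2, a metal-binding metallothionein, measured 1280.2, 6374.9, 2923.3 and 1402.8 in MET and 9667.5, 15622.1, 3859.1 and 6192.5 in ROS (-1.68 ± 0.50, adjusted p = 0.0549). It passed without MET 2 (adjusted p = 0.0179) or ROS 3 (adjusted p = 0.0385), and with the filter at the 60th percentile (adjusted p = 0.0419). Saa3 and Fgb passed with any 1 array left out, and Fga missed the threshold without MET 3, ROS 1, ROS 3 or ROS 4 (adjusted p = 0.0523 to 0.0668). With equal array medians 2 genes passed lower in MET and 1 higher, and Fga did not pass (adjusted p = 0.076), nor did it without the 5 arrays with muscle transcripts (adjusted p = 0.089). Saa3 missed the threshold in the fit to the MET and ROS arrays alone (adjusted p = 0.0626). Some list members lay the other way without passing: Hamp, the iron hormone hepcidin, measured 13846.9 to 19067.1 in MET and 219.2 to 13696.4 in ROS (1.81 ± 0.65, adjusted p = 0.126), the low value being ROS 2. Hpx, the haem carrier hemopexin, differed by 0.29 ± 0.096 (adjusted p = 0.0873).

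Chaperones of the endoplasmic reticulum and interferon-induced genes also had medians below 0. Of 22 chaperone genes tested 1 passed, lower in MET, a count near the share over all genes (1.8% lower in MET, 3.5% either way). The list's median was -0.23, against -0.036 over all genes. Pdia3, a disulfide isomerase that folds glycoproteins, measured 1070.8, 1001.9, 946.2 and 786.8 in MET and 1817, 2463.4, 1973.3 and 1414.6 in ROS (-0.97 ± 0.20, adjusted p = 0.00628), and passed with any 1 array left out. Hspa5, the chief chaperone of this compartment, measured 3713.7 to 4412.4 against 5014.4 to 6556 and just missed the threshold (-0.51 ± 0.15, adjusted p = 0.0503). Its arrays did not overlap. Hspa5 passed with quantile normalization (adjusted p = 0.0428), the filter at the 60th percentile (adjusted p = 0.0386) and the filter on the mean of log2 values (adjusted p = 0.0497). It passed in no fit with 1 array left out. Dnajb11, the partner of Hspa5, differed by -0.59 ± 0.18 (adjusted p = 0.0539). It passed without ROS 4 (adjusted p = 0.0441) and with the filter at the 60th percentile (adjusted p = 0.0437). Of 26 interferon-induced genes 1 passed, lower in MET, a count also near the share over all genes, with a median of -0.29. Irgm1, an immunity-related GTPase, measured 202.8 to 226.4 in MET and 315.2 to 411.7 in ROS (-0.69 ± 0.17, adjusted p = 0.0203), and missed the threshold without ROS 3 (adjusted p = 0.0605). Rsad2 (-0.78 ± 0.26, adjusted p = 0.0911) and Ifit1 (-0.99 ± 0.34, adjusted p = 0.104) did not pass. Their MET minus CON differences were -1.17 for Irgm1 (adjusted p = 0.000493), -1.11 for Rsad2 (adjusted p = 0.0151) and -1.79 for Ifit1 (adjusted p = 0.00425). Over the interferon list, the median difference from the same CON arrays was -0.54 for MET and -0.27 for ROS, so both medians lay below the control level.

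**Figure D4:**
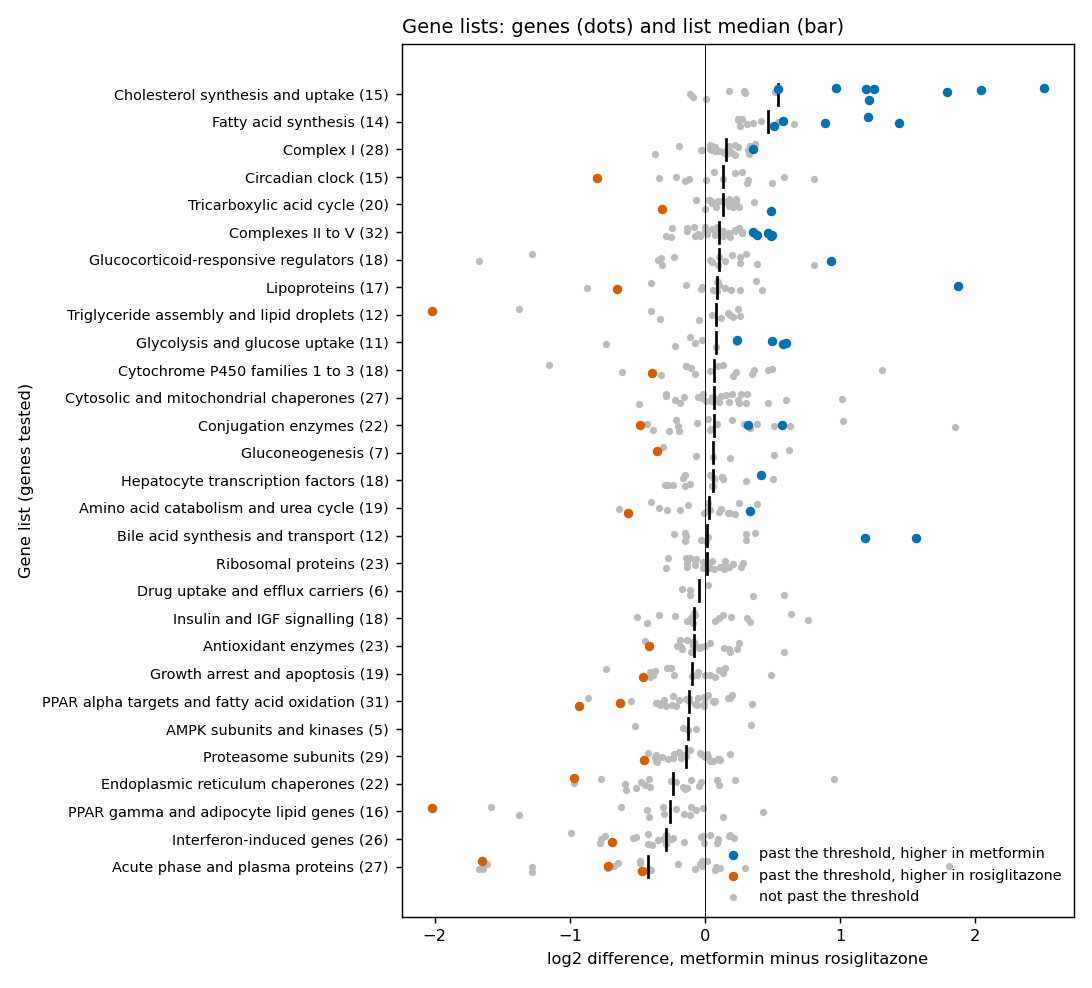
Each dot is a tested gene of a list, by its log2 difference between metformin and rosiglitazone (x axis), black bars are list medians, and numbers in parentheses are the genes tested. Blue dots passed the threshold higher in metformin and orange dots higher in rosiglitazone; cholesterol synthesis holds 8 blue dots of 15, fatty acid synthesis 5 of 14 and complexes II to V 5 of 32.

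Several enzymes of detoxification and amino acid breakdown differed by less than a doubling, in lists whose counts stand against 3.5% of all genes past the threshold. Mgst1, a microsomal glutathione transferase, was lower in MET (5831.2 to 6773.7 against 8393.5 to 9207.5; -0.48 ± 0.086, adjusted p = 0.00198). Gsta3, a cytosolic one, was higher (4385.4 to 6403.2 against 3205.8 to 3859.3; 0.57 ± 0.13, adjusted p = 0.012), and so was Gstm1 (0.32 ± 0.088, adjusted p = 0.0391). These were the 3 of 22 conjugation enzymes that passed. Gstm1 missed the threshold without MET 2, MET 3, MET 4, ROS 1, ROS 2, ROS 3 or ROS 4 (adjusted p = 0.054 to 0.112). Cyp3a25, the 1 of 18 cytochromes P450 that passed, was lower in MET (7078.2 to 8208.3 against 8411.6 to 10870; -0.39 ± 0.097, adjusted p = 0.0221), but not without MET 2, ROS 1 or ROS 4 (adjusted p = 0.0559 to 0.075). Cat, catalase, was lower in MET (-0.41 ± 0.10, adjusted p = 0.0221), the 1 of 23 antioxidant enzymes that passed, and missed it without MET 3, MET 4, ROS 1 or ROS 3 (adjusted p = 0.051 to 0.0708). Aass, which breaks down lysine, measured 4961, 4472, 4143.8 and 5773.4 in MET and 7482.8, 6900.3, 6895.5 and 7234.7 in ROS (-0.57 ± 0.11, adjusted p = 0.00475). Tdo2, which breaks down tryptophan, was higher in MET (0.33 ± 0.088, adjusted p = 0.0306), but another probe set gave -0.01, and without MET 3, MET 4, ROS 1 or ROS 2 it missed the threshold (adjusted p = 0.0746 to 0.118). With equal array medians Cyp3a25 (adjusted p = 0.107) and Cat (adjusted p = 0.0614) did not pass. Tdo2 (adjusted p = 0.0688), Gstm1 (adjusted p = 0.0706) and Cyp3a25 (adjusted p = 0.0957) did not pass without the 5 arrays with muscle transcripts. In the fit to the MET and ROS arrays alone Gsta3, Gstm1, Cyp3a25, Cat and Tdo2 did not pass (adjusted p = 0.0626 to 0.236).

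Regulators differed singly. Cebpa, a transcription factor of hepatocytes, measured 12790.4 to 17455.8 in MET and 9521.6 to 11704.3 in ROS (0.41 ± 0.099, adjusted p = 0.019), but missed the threshold without MET 3 (adjusted p = 0.0728) or ROS 2 (adjusted p = 0.0711). Dusp1, a phosphatase of MAP kinases, measured 948.2, 1571.3, 1097.7 and 677 in MET and 488, 389.8, 700.6 and 571.5 in ROS (0.93 ± 0.24, adjusted p = 0.0244), and missed it without MET 2, MET 3, ROS 1 or ROS 2 (adjusted p = 0.0541 to 0.0954). Nr1d1, a repressor of the circadian clock, measured 720.6, 816.1, 1212.7 and 806.9 in MET and 1585.3, 1130.7, 1777.3 and 1748.9 in ROS (-0.80 ± 0.20, adjusted p = 0.0221). Nr1d1 missed it without MET 1, MET 2, MET 4, ROS 1, ROS 3 or ROS 4 (adjusted p = 0.0503 to 0.071). Ccng1, a p53 target, was lower in MET (169.3 to 200.7 against 229.1 to 316.8; -0.46 ± 0.13, adjusted p = 0.0462), and missed it without MET 1, MET 2, MET 3, MET 4, ROS 1, ROS 2 or ROS 4 (adjusted p = 0.0624 to 0.148). Psmb4, a proteasome subunit, was lower in MET (2546 to 3594 against 4005.3 to 4832.9; -0.45 ± 0.11, adjusted p = 0.0156), the 1 of 29 proteasome genes that passed, and missed it without MET 3 (adjusted p = 0.0622) or ROS 4 (adjusted p = 0.0581). The proteasome count was near the share over all genes (1.8% lower in MET, 3.5% either way). Nr1d1 was the 1 of 15 circadian clock genes that passed, and Ccng1 the 1 of 19 growth arrest and apoptosis genes. Cebpa was the 1 of 18 hepatocyte transcription factors that passed, and Dusp1 the 1 of 18 glucocorticoid-responsive regulators. These counts are to be set against 1.7% of all genes higher in MET and 1.8% lower. With equal array medians Psmb4 (adjusted p = 0.0582) and Ccng1 (adjusted p = 0.109) did not pass. Dusp1 (adjusted p = 0.0614), Nr1d1 (adjusted p = 0.0955), Psmb4 (adjusted p = 0.0727) and Ccng1 (adjusted p = 0.186) did not pass without the 5 arrays with muscle transcripts. None of Cebpa, Dusp1, Nr1d1, Ccng1 and Psmb4 passed in the fit to the MET and ROS arrays alone (adjusted p = 0.0775 to 0.161).

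The next genes lay outside the lists and were chosen as those highest in ROS among called genes whose groups did not overlap. Oxt, the oxytocin precursor, measured 57.8, 145.7, 154.5 and 77.4 in MET and 407.5, 224.8, 497.1 and 309.7 in ROS (-1.53 ± 0.33, adjusted p = 0.0083). Lap3, a leucine aminopeptidase, measured 113, 115.3, 102.7 and 100.7 in MET and 282.2, 250.7, 221.3 and 201.1 in ROS (-0.97 ± 0.19, adjusted p = 0.00456). Ctsc, cathepsin C, which activates serine proteases of immune cells, measured 527.7, 316.3, 411.6 and 437.2 in MET and 991.1, 1148.9, 675.3 and 599.6 in ROS (-0.94 ± 0.24, adjusted p = 0.0238). Kupffer cell and macrophage markers summed to 6210 to 9050 in MET and 5040 to 8030 in ROS, Marco being below 27 on all 8 arrays. Of 13 tested 0 passed, and 11 lay above 0, with a median of 0.29. Their part in the Ctsc result was not tested. Hsd17b2, which inactivates oestradiol and testosterone, measured 566.2, 472.3, 706 and 508.1 in MET and 922.8, 1021.6, 1108.3 and 888.3 in ROS (-0.79 ± 0.16, adjusted p = 0.00574). Inhbe, an activin subunit made in liver, measured 134.2, 242.8, 126.5 and 224.9 in MET and 408, 327.4, 414.1 and 271.9 in ROS (-0.90 ± 0.23, adjusted p = 0.0257). Tgoln1, a protein of the trans-Golgi network, measured 1223.1 to 1878 against 2024.9 to 2888.1 (-0.73 ± 0.15, adjusted p = 0.00702), while its 3 other probe sets gave -0.37, -0.28 and -0.11 without passing. Oxt, Lap3, Hsd17b2 and Tgoln1 passed with any 1 array left out. Ctsc missed the threshold without MET 2, ROS 1 or ROS 2 (adjusted p = 0.071 to 0.0923) and Inhbe without MET 1, MET 3, ROS 1 or ROS 3 (adjusted p = 0.0739 to 0.0851). Tgoln1 (adjusted p = 0.0626), Ctsc (adjusted p = 0.0775) and Inhbe (adjusted p = 0.0955) did not pass in the fit to the MET and ROS arrays alone.

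Set against the same 4 CON arrays, 308 probe sets (4.1%) passed for MET and 10 (0.133%) for ROS. An unadjusted p under 0.05 by limma was found for 1342 of the 7507 with MET and 636 with ROS. The MET count fell to 190 without MET 3, to 200 without MET 4 and to 96 without the 5 arrays with muscle transcripts, of which CON 3 is 1; the ROS count was then 7. The comparisons share CON and are given side by side. For the sterol genes the MET minus CON and ROS minus CON differences were 2.17 and -0.34 for Fdps, 1.40 and -0.65 for Msmo1, 1.74 and -0.053 for Idi1, and 0.99 and -0.27 for Nsdhl. MET passed for Fdps (adjusted p = 0.00805), Idi1 (adjusted p = 0.0476) and Nsdhl (adjusted p = 0.00972), not for Msmo1 (adjusted p = 0.0846), and ROS for none of them. Fads1 gave 0.97 (adjusted p = 0.00226) and -0.23. For genes lower in MET, Lap3 gave -1.15 (adjusted p = 0.00134) and -0.18, and Pdia3 -0.85 (adjusted p = 0.0169) and 0.12. Ctsc gave -0.041 and 0.90 (adjusted p = 0.159), and Saa3 -0.76 (adjusted p = 0.25) and 0.89 (adjusted p = 0.474), so that neither drug passed against CON for these. Cyp7a1 gave 0.92 (adjusted p = 0.174) and -0.64 (adjusted p = 0.719), and Cyp8b1 0.56 (adjusted p = 0.319) and -0.62 (adjusted p = 0.579), with neither drug past the threshold.

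**Figure D5:**
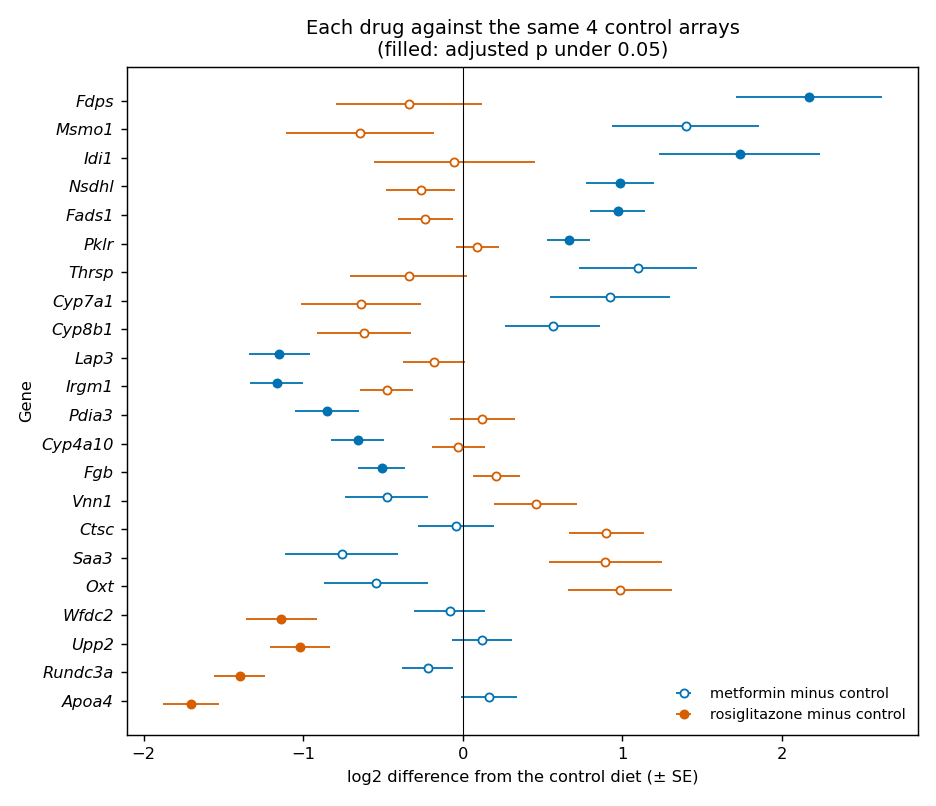
The log2 difference from the control diet, with its standard error from limma, for 22 genes under metformin (blue) and rosiglitazone (orange), filled where the adjusted p was under 0.05. Both drugs are set against the same 4 control arrays; rosiglitazone passed for Apoa4, Rundc3a, Upp2 and Wfdc2, at -1.70, -1.40, -1.02 and -1.14, where metformin lay near 0.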

How the data were processed

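Total RNA of liver was hybridised to Affymetrix MG-U74Av2 arrays, 1 per mouse. The deposited values were linear intensities, scaled by the authors before deposit: each column's mean without its top and bottom 2% lay between 500.4 and 500.5. The labels name no software, background correction, detection calls or batches (not given in the sources used here). The number of arrays limits the precision. The platform annotation gave 1 symbol for 10833 of 12422 probe sets, several for 396 and none for 1193; names come from the first kind.

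Here 27, the 20th percentile of all intensities, was added before log2. Probe sets were kept where the mean intensity over 32 arrays exceeded the 40th percentile, 94.2; 7507 passed, 6730 with 1 symbol. limma 3.58.1 in R 4.3.3 fitted all 8 groups together (lmFit, eBayes with trend, 24 residual degrees of freedom), and the same code was tested on simulated data. Genes were represented by their brightest probe set. Errors are SE of the fit. The exact permutation test of 4 against 4 arrays allows no p below 0.0286.

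Members, gene lists and tests were chosen with earlier results of these data known, and an earlier analysis had filtered on the mean of log2 values. The text names the 15 genes highest in each drug among called genes without overlap, called list members, the 4 list members with the smallest p and a set of metabolic genes, and Lamp1, Hexa, Ctsd, Gaa and Acp5 from outside this rule; Fgg, Ifit1, Rsad2, Dnajb11 and Cidea were added after the alternatives had been run. It leaves out the least informative: Prss39, Taf6, Gm4788, Dclre1a, Prrc2a, Stk25 and most list members not past the threshold. The sequence windows were chosen for CCAAT after the sterol element search. Promoters are credited to RefSeq, GRCm38.p6. Some genes of these pathways are not reported here.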

Additional observations from a re-analysis of the deposited data

Results flagged for a closer look

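In each group of 4 arrays, the highest or lowest array was set apart where its gap to the nearest other array was past Dixon's critical value as a share of the group's range on the log2 scale. Of 267 such checks, 9 were past this limit, and chance alone marks about 1 in 20. In MET, Cidea was 177.5 in MET 2 against 13 to 20 in the other arrays, and Plin4 was 277.9 in MET 2 against 45.7 to 62.9, so that both droplet genes stood high in the same mouse. Ppara was 1579.4 in MET 3 against 4053.3 to 4747.4. In ROS, Acly was 1871.4 in ROS 3 against 1997.6 to 2007.2, a small gap in a tight group. In CON, Thrsp was 1396.7 in CON 3 against 823.6 to 845.2, and Cyp8b1 was 5503.6 in CON 2 against 3620.2 to 3856. Uqcr10 was 4274.4 in CON 4 against 4533.1 to 4559.5, and Uqcrb was 3874.9 in CON 4 against 4495.3 to 4616.9. Inhbe was 353 in CON 1 against 263.9 to 268.9.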

How the results depend on the processing

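The count of 268 probe sets past the threshold lay between 200 and 297 under quantile normalization, equal array medians, other added values, other filters, no intensity trend, 1 probe set per gene and plain probe sets alone. The directions moved with equal array medians (225 higher in MET, 49 lower), as did both with the fit to MET and ROS arrays alone (60 past the threshold, 36 higher, 24 lower, and 2 fatty acid synthesis genes), which has fewer residual degrees of freedom. With 1 array left out, 161 to 218 passed, 78 to 129 higher and 65 to 107 lower in MET, 5 to 9 sterol genes and 2 to 7 fatty acid genes. MET against CON gave 190 to 230 without 1 MET array. Without the 5 arrays with muscle transcripts, an alternative chosen after seeing the data, 134 passed (75 higher, 59 lower) and 96 for MET against CON. A filter on the mean of log2 values, also added later, gave 274. With the replicate number as a block 242 passed, 232 of them shared. Deviations of same-numbered arrays from their group means correlated at -0.0319 to 0.0807. These values gave no sign that the numbers paired the arrays, but they cannot exclude it. Of 64 named genes past the threshold, 28 stayed past it with any 1 of 8 arrays left out, and 18 in every setting where they were tested. Only Ppara, which was not past the threshold, changed sign: it lay between -0.38 and 0.15 with 1 array left out, the latter without MET replicate 3; the cause was not tested.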

Other observations

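Genes for proteins of the lysosome, which the lists did not cover, included several that passed and were higher in MET; they were picked after their values were seen, so their number carries no test. Lamp1, a membrane protein of the lysosome, measured 10664.8, 11208.9, 12665.9 and 11928.1 in MET and 8191.8, 8078.4, 8471.9 and 7915.5 in ROS (0.51 ± 0.07, adjusted p = 0.000113), and passed with any 1 array left out. Hexa, a subunit of hexosaminidase, measured 766.6, 820.6, 659.1 and 940.8 against 530, 508, 545.4 and 390.3 (0.66 ± 0.15, adjusted p = 0.0096), and Ctsd, cathepsin D, 4600.3 to 5427.7 against 3786.3 to 4098.3 (0.37 ± 0.087, adjusted p = 0.017). Ctsd missed the threshold without MET 1 (adjusted p = 0.0518) and Hexa without the 5 arrays with muscle transcripts (adjusted p = 0.0588). Gaa, acid alpha-glucosidase (0.36 ± 0.10, adjusted p = 0.0468), and Acp5, an acid phosphatase (0.35 ± 0.099, adjusted p = 0.0455), lay near the threshold and missed it in most fits with 1 array left out (adjusted p = 0.0564 to 0.169) and without the 5 arrays with muscle transcripts (adjusted p = 0.115 for Gaa and 0.179 for Acp5). In the fit to the MET and ROS arrays alone Ctsd, Hexa, Gaa and Acp5 did not pass (adjusted p = 0.0626 to 0.249). Gaa also missed it with quantile normalization (adjusted p = 0.0859). Ctsc, also of the lysosome, was lower in MET. Macrophages are rich in lysosomes. Of 13 macrophage markers tested 0 passed, and 11 lay above 0, with a median of 0.29 against -0.036 over all genes. Their sum is given with the result on Ctsc, and their part in these values was not tested.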
